A study of Solanum chacoense with 24 samples.

Results

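The gene models of chromosome 2 whose midpoint lies below 25 Mb were followed in leaf RNA of 2 parents and 6 F2 lines of Solanum chacoense, which is a wild relative of potato. Of the 37740 models in the deposited count table, 1129 met that rule, which used position and no expression value. Another 1768 lay further along chromosome 2, 26889 lay on the other chromosomes, and 7954 lay on unplaced sequence and had 0 counts in every library. Coordinates are those of the deposited table, whose genome build is not given in the sources used here.

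The parent USDA8380-1 (80-1) is resistant to the Colorado potato beetle, and M6, an inbred line, is its susceptible mate. Among the F2 progeny, lines EE501F2_089, EE501F2_516 and EE501F2_641 carry the label resistant, and EE501F2_093, EE501F2_099 and EE501F2_500 the label susceptible. Each F2 line is 1 individual from an extreme of a field trial. For each of the 8 lines, 3 in vitro plants were grown without a stated beetle treatment at 20 °C with 16 h of light and 70% relative humidity, and leaf RNA with an integrity number of at least 8 was taken at 16 weeks after transplanting. Total counts per library ran from 23610756 to 40825791 in 7 lines and from 60713423 to 77078776 in EE501F2_093, and the members took 872017 to 4530342 of them. The identifiers carry no gene names, so the leaf label could not be checked against marker genes, and no role is given to a model. In leaf pieces, fewer cells of a type and less RNA per cell cannot be told apart.

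The Colorado potato beetle is a leaf-feeding pest of potato, and Solanum chacoense is known as a source of resistance to it, including through leptine glycoalkaloids in the leaves of some accessions. In an F2 population each plant carries a mosaic of chromosome segments from both parents, so neighbouring genes tend to be inherited together. A gene whose level is set by variation at or near the gene itself tends to follow the parent its segments came from. Where a plant carries a segment from each parent, that level can lie between theirs. A gene set from elsewhere in the genome need not follow its own segments.

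Models were sparse at the start of the chromosome and dense towards 25 Mb. There were 29 models in the first 2.5 Mb and 246 between 22.5 and 25 Mb. Of the 1129 members, 168 (14.9%) had 0 counts in every library, 223 had counts too low to test, and 738 (65.4%) were tested. The tested share was 79.8% on the rest of chromosome 2 and 70.2% on the other chromosomes. The mean level of the tested members over the 8 lines had a median of 12.7 CPM, (counts per 1000000, with library totals scaled by TMM), against 11.0 on the other chromosomes.

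A pair of members took a large share of the region's counts. On the scale of CPM per 1000 bases of model length (RPKM), g30427 (chromosome 2, 17123147 to 17124337, minus strand) had the highest mean level over lines, at 10723, with line means from 4105 to 18384. Its level was lowest in EE501F2_516 and highest in EE501F2_641. The next, g1068 (chromosome 2, 24174571 to 24175368, plus strand), had a mean of 3128 RPKM and line means from 868 to 6509, with the same lines at both ends. Together they took 11.3% to 31.7% of the member counts of a library. All members together took 3.41% to 4.07% of counts in EE501F2_516 and 6.34% to 6.79% in EE501F2_641, and those of the other 6 lines lay between 3.76% and 6.01%. Neither model was called between the parents (adjusted p = 0.0726 and 0.190, edgeR's quasi-likelihood test with Benjamini-Hochberg adjustment).

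The steadiest member above 50 CPM was g27376 (chromosome 2, 20038911 to 20045668, minus strand), whose line means ran from 68.7 ± 2.32 CPM in EE501F2_093 to 81.3 ± 6.82 CPM in EE501F2_089 (SD, n = 3 plants). It lies about 30 kb from the pair g27378 and g27379 described below, whose line means differed by more than 10-fold. Of the tested members, 32 (4.34%) were called in none of the 28 comparisons of 2 lines, against 5.87% of all models.

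Between the parents, 272 of the 738 tested members (36.9%) differed at an adjusted p under 0.05, and 37.3% of all tested models did. In 80-1, 129 members were higher, where 18.6% of all models were higher, and 143 were lower, where 18.7% of all models were lower. The absolute log2 difference had a median of 0.45 over the members and 0.49 over all models. At 2-fold or more 153 members differed (20.7%, beside 22.2% of all models). At 4-fold or more, 78 members differed, 37 of them higher and 41 lower in 80-1, while 11.6% of all models passed that limit. The share of members called by the parental test was thus near that of the genome as a whole, and along the region it ran from 21.7% between 2.5 and 5 Mb to 47.7% between 7.5 and 10 Mb.

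**Figure D1:**
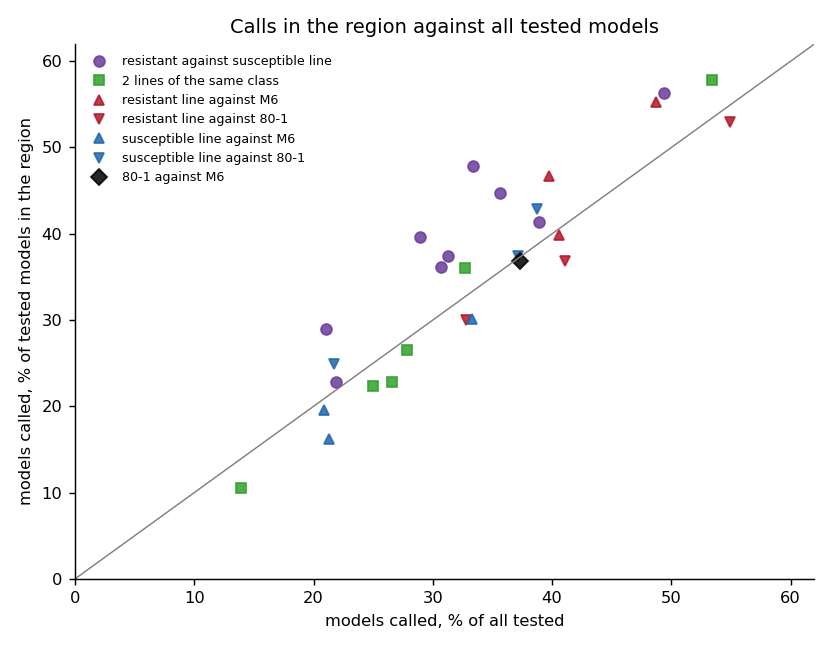
Percent of tested members called (vertical axis) against percent of all tested models called (horizontal axis) in 28 comparisons of 2 lines (edgeR's quasi-likelihood test, adjusted p under 0.05), 1 point per comparison, with the line of equal shares. All 9 points for a resistant against a susceptible F2 line lie above the line, and the point for the parents, at 36.9% and 37.3%, lies on it or just below.

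At a mean of 5 CPM or more in the higher parent, the largest called differences between the parents were close to presence and absence. Model g3669 (chromosome 2, 7242861 to 7250207, plus strand) stood at 10.9, 9.76 and 9.05 CPM in the plants of 80-1 and had 0 counts in all 3 plants of M6, at least 350-fold higher in 80-1 against a limit of 3 counts over the M6 plants. Model g34830 (chromosome 2, 21318380 to 21320847, minus strand) stood at 6.18, 6.34 and 5.99 CPM in 80-1 and at 0.0955, 0.128 and 0.226 CPM in M6. Its log2 difference was 5.32 ± 0.45 (SE, adjusted p = 1.9e-08, edgeR).

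Both of these models followed the class of the F2 lines. The resistant plants had 3.72 to 10.01 CPM of g3669, with a median of 8.27, and the 9 susceptible plants had 0 to 0.0424 CPM. For g34830 the resistant plants had 2.72 to 8.19 CPM and the susceptible plants 0 to 0.196 CPM. The classes did not overlap for either model.

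At the same level, the largest called differences in the other direction were those of g8404 and g40497. Model g8404 (chromosome 2, 14231797 to 14232869, plus strand) stood at 29.6, 22.1 and 25.4 CPM in M6 and at 0.193, 0.211 and 0 CPM in 80-1, a log2 difference of -7.52 ± 0.96 (SE, adjusted p = 4.6e-06, edgeR). Model g40497 (chromosome 2, 24657534 to 24660291, plus strand) stood at 17.0, 18.5 and 12.9 CPM in M6 and at 0.193, 0.0845 and 0 CPM in 80-1. Its log2 difference was -7.36 ± 0.88 (SE, adjusted p = 2.0e-06, edgeR).

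In the F2, the 80-1 level of g8404 was seen in the plants of EE501F2_089 and EE501F2_516, at most 0.107 CPM, and the 9 susceptible plants had 19.7 to 29.7 CPM, overlapping with M6. The plants of EE501F2_641 had 15.2, 0.109 and 8.84 CPM. Plant 2 of that line therefore sat at the 80-1 level and the other plants sat between the parents. The same order held for g40497, at 3.998, 0.0545 and 0.964 CPM, although the susceptible lines, at 4.50 to 10.6 CPM, stayed below M6.

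Some members were read in 1 parent only, which was taken as at least 1 CPM in each plant of that parent and 0 counts in all plants of the other. There were 4 such members in 80-1 and 2 in M6, of 81 and 40 such models in the whole table. These were 0.354% and 0.177% of the members, near the 0.272% and 0.134% of all models placed on chromosomes. The limit that 3 counts allow was 0.0284 CPM over the M6 plants and 0.0409 CPM over the 80-1 plants. Where up to 3 counts in the other parent and 0.5 CPM were accepted, 8 and 5 members qualified, and at 2 CPM 2 and 1 did. The share of all models was not taken at these other limits.

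The 4 members read only in 80-1 behaved differently in the F2. Model g8418 (chromosome 2, 14489242 to 14493521, minus strand), at 3.13, 2.83 and 2.35 CPM in 80-1, had 26 to 157 counts in every resistant plant and at most 2 counts in every susceptible plant, as g3669 did with 80 to 312 and at most 3. Model g29718 (chromosome 2, 19399119 to 19404657, minus strand) was read in 5 F2 lines of both classes, at 0.0835 to 1.84 CPM, and had 0 counts in the 3 plants of EE501F2_099.

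Model g15961 (chromosome 2, 848236 to 851382, plus strand) went the opposite way in the F2. It stood at 1.28, 1.48 and 2.09 CPM in 80-1, where it was at least 56.6-fold higher than in M6. The resistant F2 plants had 0 to 0.790 CPM and the susceptible ones 0.683 to 2.23 CPM, so the classes overlapped slightly while the line means, at most 0.391 and at least 1.13 CPM, did not. The resistant minus susceptible difference was -2.01 ± 0.44 on the log2 scale over plants (SE, adjusted p = 0.0016, edgeR), and with lines as replicates edgeR did not call it (adjusted p = 0.27) while DESeq2 did (adjusted p = 5.8e-06). Models g15961 and g29718 are described because their F2 values had been seen.

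The 2 members read only in M6 reappeared rarely. Model g3685 (chromosome 2, 7524820 to 7525119, minus strand) had 55, 73 and 43 counts in M6 and, among the F2, 48, 92 and 84 counts in EE501F2_500 and at most 5 in any other plant. Model g28410 (chromosome 2, 18318990 to 18319343, plus strand) had 71, 118 and 75 counts in M6 and at most 2 counts in each of the 18 F2 plants, in both classes.

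Each F2 line was then compared with each parent. Members called against 80-1 numbered 272 in EE501F2_089 (36.9% of members, 41.1% of all models), 391 in EE501F2_516 (53.0%, 54.9%) and 221 in EE501F2_641 (29.9%, 32.8%). In the susceptible lines they numbered 184 in EE501F2_093 (24.9%, 21.7%), 276 in EE501F2_099 (37.4%, 37.1%) and 316 in EE501F2_500 (42.8%, 38.7%).

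Against M6, the members called numbered 345 in EE501F2_089 (46.7% of members, 39.7% of all models), 408 in EE501F2_516 (55.3%, 48.7%) and 294 in EE501F2_641 (39.8%, 40.6%). They numbered 120 in EE501F2_093 (16.3%, 21.3%), 144 in EE501F2_099 (19.5%, 20.9%) and 222 in EE501F2_500 (30.1%, 33.3%). EE501F2_089 and EE501F2_641 thus had fewer members called against 80-1 than against M6, and each susceptible line the reverse. This held also with 1 plant of every line left out. Over all models EE501F2_641 and each susceptible line had the same order as over the members. In EE501F2_089 the order over all models was the other way, at 41.1% against 80-1 and 39.7% against M6. In EE501F2_516 it was also the other way, at 54.9% and 48.7%, beside 391 and 408 members. Its order over the members depended on the plants, at 313 against 80-1 and 310 against M6 without plant 2. Without plant 3 these were 284 and 283. The 6 comparisons with a parent share that parent's 3 libraries.

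The F2 lines were compared with each other in 15 pairs, and the share of all models called stands second in each bracket. Of the 9 pairs between the classes, EE501F2_089 gave 330 members against EE501F2_093 (44.7%, 35.6%), 214 against EE501F2_099 (29.0%, 21%) and 292 against EE501F2_500 (39.6%, 28.9%). EE501F2_516 gave 416 (56.4%, 49.4%), 276 (37.4%, 31.3%) and 353 (47.8%, 33.4%) against the same 3 lines. EE501F2_641 gave 168 (22.8%, 21.9%), 305 (41.3%, 38.9%) and 267 (36.2%, 30.7%). The members' share was above that of the other chromosomes in 9 of 9 pairs, with medians of 39.6% and 30.8%. The median on the rest of chromosome 2 was 35.4%, also above that of the other chromosomes.

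Within the classes the shares did not lean to 1 side. EE501F2_089 gave 168 members against EE501F2_516 (22.8%, 26.6%) and 266 against EE501F2_641 (36.0%, 32.7%), and the pair EE501F2_516 and EE501F2_641 gave the highest count of all 15, 427 (57.9%, 53.4%). EE501F2_093 gave 165 against EE501F2_099 (22.4%, 25%) and 196 against EE501F2_500 (26.6%, 27.8%), and EE501F2_099 and EE501F2_500 gave the lowest, 78 (10.6%, 13.9%). The members' share was above that of the other chromosomes in 2 of these 6 pairs, with medians of 24.7% and 27.5%. On the rest of chromosome 2 the median was 24.9%. The pairs share lines, and no test was made across them.

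Parental state was put on 1 scale for the 78 members with a parental difference of at least 4-fold. On this index a member at the M6 level has 0 and at the 80-1 level has 1, computed from log2 CPM with a prior count of 2. The parental values set both ends of the scale, and the parental contrast chose the members, in the fit over all 24 libraries, so that F2 plants shared in the filter and the estimate of spread. In a fit of the 6 parental libraries alone, 59 members qualified, all of them among the 78. The line medians were 0.835 in EE501F2_089, 0.899 in EE501F2_516 and 0.618 in EE501F2_641. They were 0.328 in EE501F2_093, 0.284 in EE501F2_099 and 0.242 in EE501F2_500.

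The resistant lines were therefore nearer to 80-1 over these members and the susceptible lines nearer to M6. The class means were 0.784 ± 0.147 and 0.285 ± 0.0428 (SD, n = 3 lines), a difference of 0.499. The exact two-sided permutation test over lines gave p = 0.1, the smallest it can give for 3 lines against 3. Over the 59 members chosen in the parental libraries alone, the difference was 0.496 (exact permutation p = 0.1). On the rest of chromosome 2 the difference was 0.329 (122 models, exact permutation p = 0.1), and on the other chromosomes it was 0.0980 (2249 models, exact permutation p = 0.2). Within lines, the excess of the members over the other chromosomes differed between the classes by 0.401 (exact permutation p = 0.1, n = 3 lines per class), and over the rest of chromosome 2 by 0.170 (exact permutation p = 0.1).

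Members of both parental directions showed it. Over the 37 members higher in 80-1 the resistant lines had medians of 0.595 to 0.841 and the susceptible lines of 0.157 to 0.420. Over the 41 members higher in M6 the medians were 0.627 to 0.943 and 0.252 to 0.320. No line was wholly of 1 parental state. At an index of at least 0.75 there were 45 of the 78 members in EE501F2_089 and 46 in EE501F2_516, but 11 and 14 members stood at 0.25 or less there, and the susceptible lines had 13 to 17 members at 0.75 or above.

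**Figure D2:**
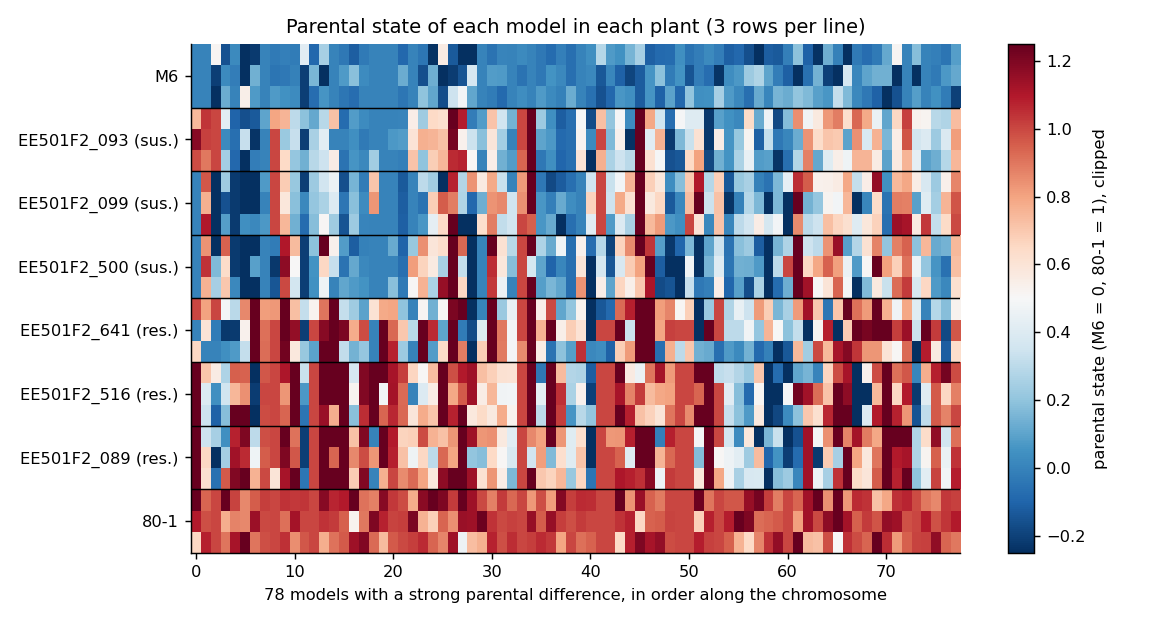
Parental state index (0 is the level of M6, 1 that of 80-1, colours clipped at the ends) of the 78 members with a parental difference of at least 4-fold, in order along the chromosome, with 1 strip for each of the 24 plants. The index differs by more than 0.5 between the plants of EE501F2_641 at 53 members and between those of another line at 13 to 21. That count was not made for models elsewhere in the genome.

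In windows of 2.5 Mb with at least 5 of these members, the classes were farthest apart between 12.5 and 15 Mb. The lowest resistant line stood above the highest susceptible line by 0.447 between 5 and 7.5 Mb (6 members) and by 0.502 between 12.5 and 15 Mb (6 members). The distance was 0.292 between 17.5 and 20 Mb (12 members), 0.0860 between 20 and 22.5 Mb (14 members) and 0.147 between 22.5 and 25 Mb (23 members). Between 15 and 17.5 Mb (8 members) the classes overlapped, with a distance of -0.237. With 6 to 23 members, a window's median rests on few models.

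Between 12.5 and 15 Mb the 3 susceptible lines stood at the M6 level, with indices of 0.0151, 0.00133 and 0.0219, and EE501F2_089 and EE501F2_516 at the 80-1 level, with 1.09 and 1.12. In the next window EE501F2_093 stood at 0.659 and EE501F2_500 at 0.574, above the 0.423 of EE501F2_641, and EE501F2_099 at 0.0968. Susceptible lines thus differed from each other there. Between 20 and 22.5 Mb EE501F2_099 stood at 0.609, EE501F2_093 at 0.360 and EE501F2_500 at 0.200. Taken by single plants, every resistant plant stood above every susceptible plant in the windows from 5 to 7.5, from 12.5 to 15 and from 17.5 to 20 Mb, by 0.154, 0.199 and 0.0780. In the other windows shown the plants of the classes overlapped. The distance was -0.346 from 15 to 17.5 Mb, -0.416 from 20 to 22.5 Mb, where plant 3 of EE501F2_641 stood at 0.220, and -0.0872 from 22.5 to 25 Mb.

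**Figure D3:**
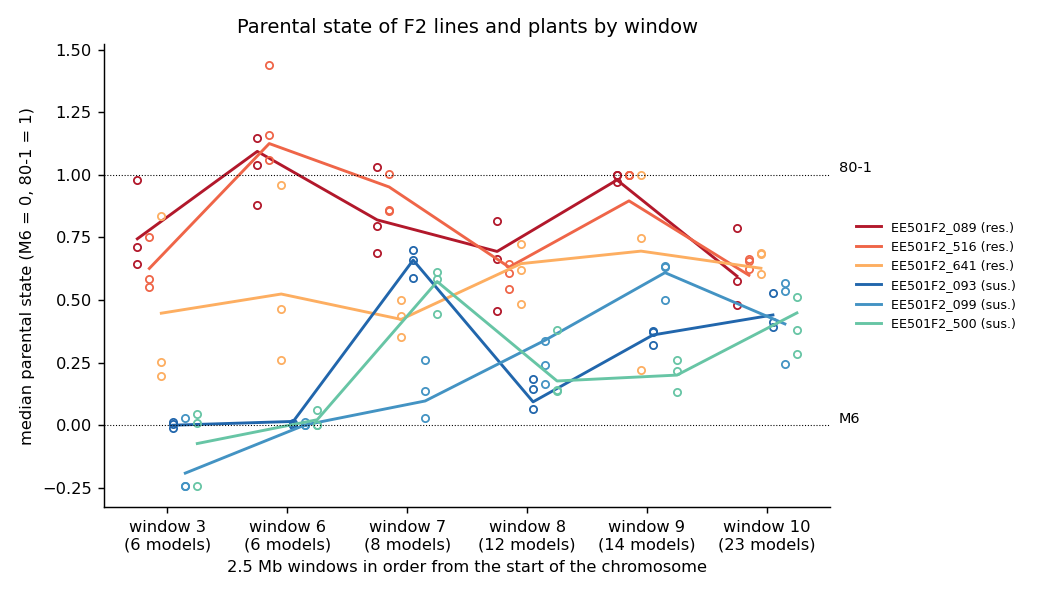
Median parental state index in windows of 2.5 Mb, numbered from the start of the chromosome (window 3 is 5 to 7.5 Mb, and 6 to 10 run from 12.5 to 25 Mb), as lines for F2 lines and open circles for plants. The resistant lines lie above the susceptible lines in every window shown except window 7, from 15 to 17.5 Mb.

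The 3 plants of EE501F2_641 did not share a parental state. Their medians over the 78 members were 0.644, 0.903 and 0.561, an SD of 0.178, where the plants of the other F2 lines had an SD of 0.0292 to 0.0592. The range over its plants was above 0.5 at 53 of the 78 members, and in the other lines at 13 to 21. That count was not made for models elsewhere in the genome. Over the 2449 models of the whole table with such a parental difference, the SD of its plant medians was 0.0216, beside 0.0198 to 0.0432 in the other F2 lines. On the rest of chromosome 2 it was 0.0543, beside 0.0294 to 0.0776. In such medians of EE501F2_641, shifts in opposite directions can cancel. Its plants did differ more at single models over the whole table, with a median SD of log2 CPM of 0.44 over the tested members and 0.44 over all tested models, where the other lines had 0.16 to 0.25 and 0.17 to 0.26. Between 5 and 7.5 Mb the plants stood at 0.835, 0.253 and 0.198, and between 20 and 22.5 Mb at 0.746, 1.00 and 0.220. The plant nearest to 80-1 was therefore not the same along the region. Plant 2 had the highest index at 40 members, plant 1 at 19 and plant 3 at 16. By the labels these plants came from 1 individual.

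The 2 members given next were chosen for the largest index range over the plants of EE501F2_641. They illustrate the spread and are no test of it. Model g28876 (chromosome 2, 12798180 to 12825835, plus strand) stood at 6.57, 8.19 and 8.04 CPM in 80-1, at 34.5, 29.4 and 35.0 CPM in M6 and at 20.5, 5.56 and 20.7 CPM in EE501F2_641. Model g846 (chromosome 2, 21924626 to 21929827, plus strand) stood at 1.24, 0.887 and 1.005 CPM in 80-1, at 5.73, 6.74 and 5.546 CPM in M6 and at 4.09, 0.109 and 4.86 CPM in EE501F2_641. In both, plant 2 was below every plant of 80-1, and the other plants were nearer to M6 than to 80-1 on the log2 scale. Part of g846 overlaps g847 on the minus strand, which had 222 counts over all libraries, and the strand setting of the counting is not given.

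**Figure D4:**
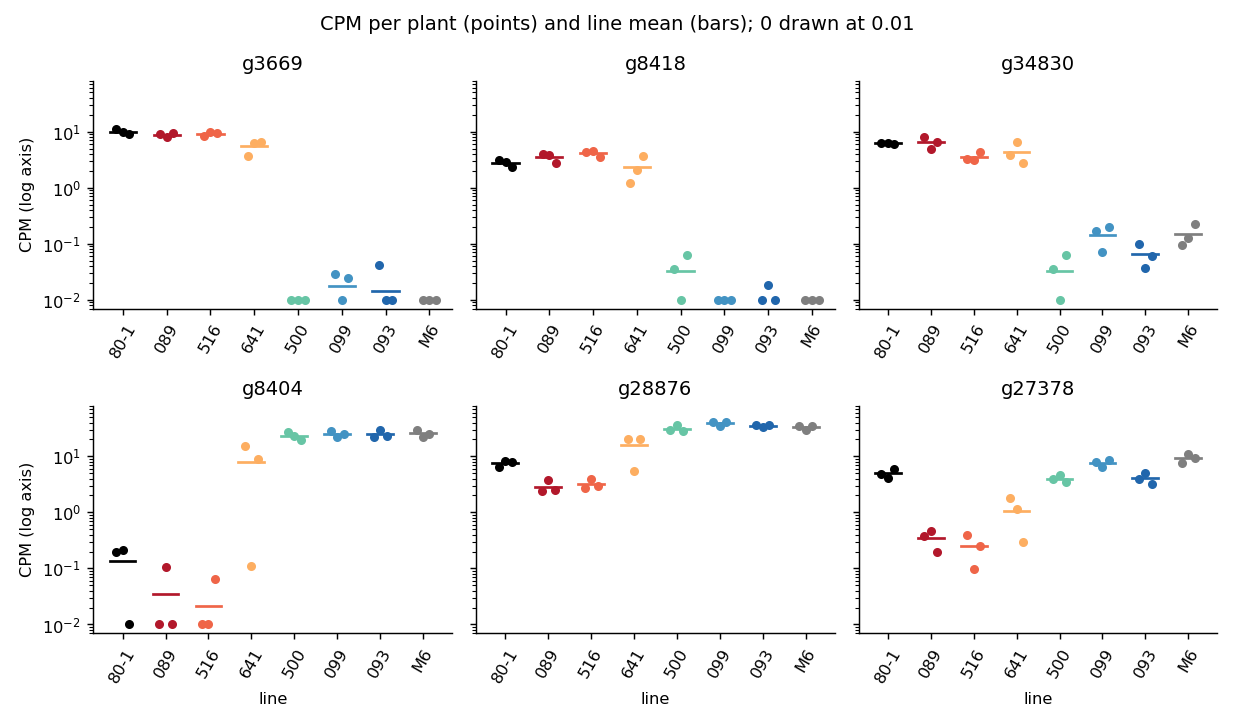
CPM on a log axis for 6 named members in each of the 24 plants (points, with 0 drawn at 0.01) and as line means (bars), with F2 lines given by their last 3 digits. For g3669, g8418 and g34830 the 9 resistant plants lie above the 9 susceptible ones, for g27378 below them, and for g8404 and g28876 plant 2 of EE501F2_641 lies below the other plants of that line.

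A set of 26 members differed with 1 sign and an adjusted p under 0.05 in each of the 9 pairs that set a resistant against a susceptible F2 line. They were 3.52% of the tested members, beside 1.26% of all models, 1.99% on the rest of chromosome 2 and 1.12% on the other chromosomes. In the resistant lines 12 were higher (0.656% of all models were) and 14 were lower (0.609% were). Their absolute log2 differences ran from 0.51 to 9.40 with a median of 2.41, and 16 differed at least 4-fold. For 24 of the 26, all 9 resistant plants were apart from all 9 susceptible plants. The rule chose the 26 on these same plants and favours such a separation, so it is no further support. The test rests on the spread between plants, so it speaks of these 6 lines.

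The 26 lay between 7.25 and 24.3 Mb, 1 of them below 10 Mb, 12 between 10 and 20 Mb and 13 beyond 20 Mb. Tested members were also unevenly spread, from 20 in the first 2.5 Mb to 189 between 22.5 and 25 Mb. The 26 made up 1 of 30 tested members between 5 and 7.5 Mb and 1 of 33 between 10 and 12.5 Mb. They made up 4 of 47 between 12.5 and 15 Mb, 3 of 87 between 15 and 17.5 Mb and 4 of 112 between 17.5 and 20 Mb. They made up 8 of 153 between 20 and 22.5 Mb and 5 of 189 between 22.5 and 25 Mb. The count depended on the lines and plants, over the whole genome as well. Without EE501F2_641, 116 members (15.7%, beside 5.94% of all models) met the rule in the remaining 6 pairs, and without EE501F2_500, 42 did (5.69%, 2.34%). With 2 plants per line, 23 (3.09%, 1.04%), 8 (1.08%, 0.391%) and 10 (1.35%, 0.313%) did without plants 1, 2 and 3 in turn.

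The parents went the same way as the F2 classes at 17 of the 26, 10 higher and 7 lower, and at 101 of the 266 models that met the rule in the whole genome. These 17 were 2.30% of the tested members, beside 0.480% of all models and 1.06% on the rest of chromosome 2. None of the 26 was called the opposite way between the parents, as 25 of the 266 were (0.119% of all models). The other 9 were not called between the parents, as 140 of the 266 were not (1.22% of the tested members, beside 0.666% of all models). A test of the parental difference minus the F2 class difference was passed by 12 of the 26, among them 8 of those 9. Those 9 were chosen for an F2 difference without a parental call on these plants, which favours passing, so it is no further support. With 0 counts in M6 and in a susceptible line, g3669 and g8418 had standard errors of 2958 and 1687 and could hardly pass. Over all tested members this test was passed by 215 (29.1%, beside 34.7% of all models), and by 356 where EE501F2_641 was left out of the fit (48.1%, beside 48.1%).

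**Figure D5:**
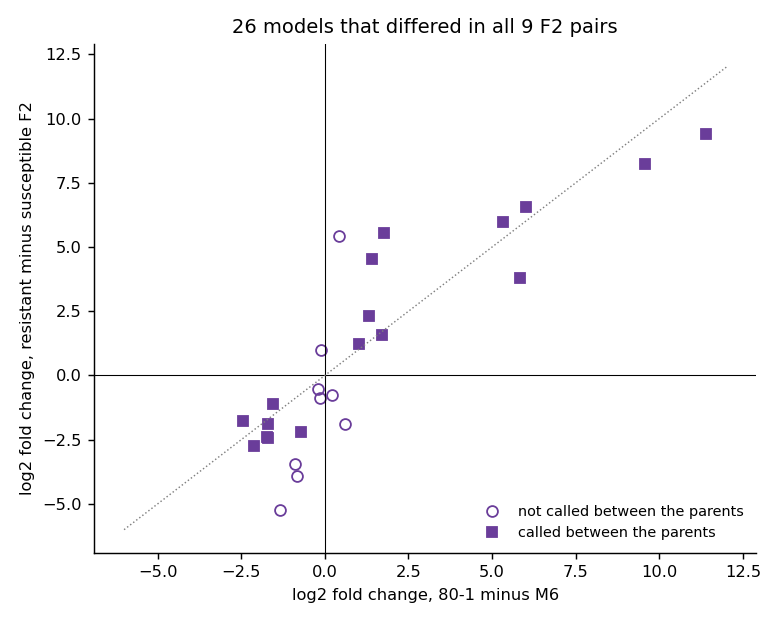
Log2 difference of the F2 classes (resistant minus susceptible line means, vertical axis) against that of the parents (80-1 minus M6, horizontal axis) for the 26 members called with 1 sign in all 9 F2 pairs, where fitted values of models with 0 counts in a group depend on the prior count. The 17 filled squares, called between the parents, share a sign in both, and the 9 open circles were not called between the parents.

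Among these 26 members, the largest rise at a mean of 5 CPM or more in the higher class was that of g3669, and the next that of g21552 (chromosome 2, 15946145 to 15954196, plus strand). Model g21552 stood at 19.8, 20.7 and 19.9 CPM in 80-1 and at 6.33, 7.33 and 4.98 CPM in M6. The resistant F2 plants had 10.7 to 25.7 CPM and the susceptible ones 4.56 to 8.52 CPM, without overlap. The parental log2 difference of 1.69 ± 0.16 and the F2 difference of 1.59 ± 0.09 (SE, adjusted p = 1.0e-07 and 2.6e-10, edgeR) differed by 0.11 ± 0.18 (adjusted p = 0.70).

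Among the 26, the largest falls at that level were those of the neighbours g27378 (chromosome 2, 20075201 to 20075746, minus strand) and g27379 (20075771 to 20078264, minus strand). Model g27378 stood at 4.87, 4.10 and 5.90 CPM in 80-1 and at 7.58, 10.8 and 9.20 CPM in M6. The resistant F2 plants had 0.0962 to 1.77 CPM and the susceptible ones 3.26 to 8.45 CPM. The resistant F2 plants were thus below the plants of both parents, while the parents were not called apart (log2 difference -0.89 ± 0.37, SE, adjusted p = 0.068, edgeR).

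Model g27379 showed the same picture, at 6.89 ± 0.718 CPM in 80-1 and 12.4 ± 3.83 CPM in M6 (SD, n = 3 plants). The resistant plants had 0.125 to 2.84 CPM and the susceptible ones 4.72 to 10.6 CPM. The F2 log2 differences of the neighbours were -3.45 ± 0.26 and -3.91 ± 0.35 (SE, adjusted p = 6.3e-09 and 5.9e-08, edgeR). The parental minus F2 difference passed the test for both, at 2.56 ± 0.46 and 3.06 ± 0.61 (adjusted p = 0.00023 and 0.00062). Both were picked for their F2 falls on the same plants, which favours passing it. Reads of near-identical copies cannot be separated here, since the handling of multi-mapping reads is not given.

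With the lines as replicates, counts summed over the plants of each line gave 1 called member, g3669, with a log2 difference of 9.21 ± 0.72 (SE, adjusted p = 0.046, edgeR), where 0.0142% of all models were called. Leaving out any 1 of the 5 other F2 lines ended that call, and without EE501F2_641 4 members were called, beside 0.0603% of all models. Leaving out plant 2 or plant 3 of every line also ended the call. Without plant 1 of every line 3 members were called, beside 0.0438% of all models. At an unadjusted p under 0.05 there were 110 members (14.9%, beside 7.4% of all models). The share was 10.9% on the rest of chromosome 2 and 6.85% on the other chromosomes. DESeq2 called 52 members on the same sums (6.54%, beside 2.34% of all models and 3.85% on the rest of chromosome 2). Of the 26 members above, which were chosen on the same plants, 24 were among them.

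For 158 members the 3 resistant line means were all above or all below the 3 susceptible ones. That was 21.4%, beside 12.8% of all models and 17.8% on the rest of chromosome 2. In the resistant lines 69 of the 158 members were higher (6.45% of all models) and 89 lower (6.31%). The single plants did not overlap for 31 members (4.20%), beside 1.45% of all models and 2.34% on the rest of chromosome 2. The difference of class means tested over plants was called for 337 members (45.7%, beside 33.3% of all models and 38.4% on the rest of chromosome 2).

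Many members lay outside the range of the parents in some F2 line. Called above both parents were 73 members in EE501F2_089 (9.89%, beside 9.68% of all models), 102 in EE501F2_516 (13.8%, 14.4%) and 40 in EE501F2_641 (5.42%, 7.41%). In the susceptible lines they were 15 in EE501F2_093 (2.03%, 2.36%), 21 in EE501F2_099 (2.85%, 3.74%) and 55 in EE501F2_500 (7.45%, 6.99%). The members' shares above both parents were thus near those of all models. Called below both were 92 members in EE501F2_089 (12.5%, 9.51%), 157 in EE501F2_516 (21.3%, 16.7%) and 58 in EE501F2_641 (7.86%, 6.91%), and 21 in EE501F2_093 (2.85%, 1.68%), 31 in EE501F2_099 (4.20%, 4.02%) and 74 in EE501F2_500 (10.03%, 7.45%). In at least 1 line 181 members were above (24.5%, 24.8%) and 227 below (30.8%, 25.3%). On the rest of chromosome 2 these shares were 26.1% and 27.2%. No member was above both parents in all 6 lines (0.138% of all models were), and 2 were below both in all 6 (0.195% were).

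At 5 CPM or more in the highest of the 3 lines compared, the largest distance above both parents was that of g10810 (chromosome 2, 4828914 to 4831103, plus strand) in EE501F2_516. It stood at 174, 209 and 212 CPM there, at 69.8, 96.6 and 62.1 CPM in EE501F2_089 and at 4.97 to 23.6 CPM in the plants of all other lines, parents included. The log2 difference of EE501F2_516 was 4.002 ± 0.43 against 80-1 and 4.28 ± 0.43 against M6 (SE, adjusted p = 2.7e-07 and 1.7e-07, edgeR). EE501F2_641, the other resistant line, stood at 4.97, 18.4 and 23.6 CPM, and its plants overlapped with those of the susceptible lines, at 5.70 to 16.3 CPM. Its mean, 15.7 CPM, was above the highest susceptible line mean, 13.0 CPM. The class difference over plants was 2.602 ± 0.23 on the log2 scale (SE, adjusted p = 5.9e-08, edgeR), and on line sums edgeR did not call it (adjusted p = 0.41) while DESeq2 did (adjusted p = 0.0048).

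The next, g882 (chromosome 2, 22335132 to 22336454, minus strand), stood at 41.2, 2.31 and 8.84 CPM in EE501F2_516 and at 0.773, 1.65 and 3.39 CPM in 80-1. Its plants overlapped with those of 80-1, and the log2 difference of 3.18 ± 0.92 (SE, adjusted p = 0.0065, edgeR) fell to 1.15 without plant 1 of each line (adjusted p = 0.23).

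At the same level, the largest distances below both parents were again in EE501F2_516. Model g846 had 0, 0 and 1 count there, against 21 to 32 counts in the plants of 80-1 and 180 to 263 in those of M6 (adjusted p = 8.0e-05 and 6.2e-07, edgeR). With 1 count in the line, the level in 80-1 was 103 times as high, with a counting interval (95%, exact binomial) of 18.0 to 4130. Model g1063 (chromosome 2, 24151610 to 24152407, plus strand) stood at 8.35, 1.251 and 2.74 CPM there, and at 209, 144 and 148 CPM in 80-1 and 127, 173 and 131 CPM in M6. The log2 difference was -5.33 ± 0.78 against 80-1 and -5.11 ± 0.77 against M6 (SE, adjusted p = 1.2e-05 and 2.2e-05, edgeR). In EE501F2_641 the same model stood at 386, 142 and 486 CPM.

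At the limit of the region, the last tested member was g33647 (chromosome 2, 24984451 to 24985701, minus strand), at 6.34 ± 1.37 CPM in 80-1 and 0.679 ± 0.247 CPM in M6 (SD, n = 3 plants). All 6 F2 lines stood at 3.21 to 6.55 CPM, above M6. The first tested model beyond it, g33649 (chromosome 2, 25026147 to 25034961, minus strand), stood at 65.7 ± 7.09 CPM in 80-1 and 102 ± 4.28 CPM in M6, and at 41.0 to 85.6 CPM in the F2 lines.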

How the data were processed

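The authors deposited raw counts per model for 24 leaf libraries as 1 featureCounts table, per the file headers. The submitters' processing notes name featureCounts 1.5.3, Subread, STAR 2.6.0, DESeq2 and Trimmomatic 0.35 without saying what each did. The build, annotation, strand setting and multi-mapping treatment were not given in the sources used here. The deposited table also holds model length in bases, another unit, used only for CPM per 1000 bases.

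Tests were run with edgeR 4.0.16 under R 4.3.3. Models were filtered with filterByExpr and libraries scaled by TMM. A quasi-likelihood fit with 1 mean per line over 24 libraries (16 residual degrees of freedom) gave all comparisons of plants, adjusted by Benjamini-Hochberg over 21028 models and called under 0.05. The class of F2 lines was tested on counts summed by line (21184 models, 4 residual degrees of freedom). Standard errors are the estimate divided by the square root of F. The fit was tested on simulated data. Alternatives were DESeq2 1.42.0, other scaling, no filter, left-out plants and lines, and a replicate block. Limits of 3 counts cover counting error only.

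Replicate pairs of a line differed beyond counting noise (chi-square per degree of freedom 11.2 to 227), so none was merged. Plants are of 1 individual per line, and p-values over plants measure the spread between them.

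The members, the rules for naming models and the alternatives were chosen with earlier results of these data known. Named are at most 2 models per direction and comparison: the largest changes at 5 CPM or more in the higher group, the largest ranges in EE501F2_641, the highest levels, the steadiest model above 50 CPM and the models at the 25 Mb limit. Lists of genes by pathway or tissue were not used, because the identifiers carry no names, and no sequence was available to show.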

Additional observations from a re-analysis of the deposited data

Results flagged for a closer look

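For 6 named members, the parental difference (80-1 minus M6) and the F2 class difference (resistant minus susceptible) were unequal by the test of their difference over plants (edgeR, Benjamini-Hochberg adjustment), which speaks of these lines. The parental minus the F2 difference was 2.56 on the log2 scale for g27378 and 3.06 for g27379. In both the F2 difference was the more negative, and the resistant F2 lines fell below both parents. Both were named for their F2 falls, which favours this result. For g846 the parental minus the F2 difference was 2.37 (adjusted p = 0.023), again with the F2 difference the more negative. It was not called without plant 1 or plant 3 of each line (2.20 and 2.96, adjusted p = 0.20 and 0.13). For g10810 it was -2.32, since EE501F2_089 and EE501F2_516 were high and the parents were not called apart. For g33647 it was 2.88, with a parental log2 difference of 3.21 ± 0.34 (SE) and an F2 difference of 0.34 ± 0.17 (SE). For g15961 it was 10.80, a fitted value that depends on the prior count because M6 had 0 counts, and the F2 classes differed in the opposite direction to the parents.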

How the results depend on the processing

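Of the repeats of the counts and of the state difference, 140 stayed within 1.5 times or kept their sign and 45 moved. A count could not reverse. The permutation test of the state difference could not reach p under 0.05 with at most 3 lines per class, so only its sign could change. The difference in parental state was 0.366 to 0.594 under all alternatives, lowest without the members called in all 9 pairs. Choosing the members in the parental libraries alone, an alternative added after seeing the data, gave 0.496.

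Without EE501F2_641, 356 members passed the test of parental minus F2 difference, against 215. On line sums, DESeq2 called 52 members, and 0 and 5 were called with EE501F2_641 as its plant 1 or plant 2 alone. Members read only in 80-1 numbered 8 at 0.5 CPM with up to 3 counts in the other parent and 2 at 2 CPM, and those read only in M6 numbered 5 and 1. The share of all models was not taken for these counts, nor for the 0 and 5 on line sums.

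Leaving out a plant of every line in turn, which shrinks the data, gave 164 to 196 members for EE501F2_089 against 80-1 and 219 to 264 against M6, 108 to 182 and 175 to 225 for EE501F2_641, 284 to 338 and 283 to 349 for EE501F2_516, 90 to 123 and 50 to 91 for EE501F2_093, and 156 to 194 and 50 to 77 for EE501F2_099. It gave 212 to 251 for EE501F2_500 against 80-1 and 131 to 133 against M6, a median of 170 to 219 for pairs between classes and 79 to 104.5 within classes, and 104 to 137 for the parental minus F2 difference. With plants or lines left out, the members called in all 9 pairs numbered 8 to 116 and those called on line sums 0 to 4. For the other counts of this paragraph the share of all models was not taken. Those ranges therefore do not set the members beside the genome.

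The replicate numbers do not pair the plants: the 84 same-number correlations of deviations had a median of 0.0128 (-0.380 to 0.296), 17 were over 0.1, and 6 of 24 libraries correlated best with their own number. With the replicate block, 265 members were called between the parents and 26 in all 9 pairs.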
